A study of Mus musculus with 2 samples.

Results

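The 10 genes described here encode acute-phase proteins and antimicrobial proteins of mucosal surfaces. They are the serum amyloids Saa1, Saa2 and Saa3, the lectin Reg3g, the endotoxin carrier Lbp, the beta-defensin Defb29, and Lcn2, Ltf, Hp and Cp. They were taken by symbol, as every non-control probe whose accession maps to one of these names, which gave 13 probes of 41174. All 10 genes were among the 13932 genes detected in the series, and they were chosen by their ratios of transgenic over wild-type signal on these arrays, together with their function. Gene expression was measured in the ventral prostate of FVB/N mice at 6 months of age (the strain is also spelled FBV/N in the labels, whose growth text speaks of ventral or dorsolateral lobes). The transgenic group is an RNA pool of 6 mice with the ARR2PB-miR32 transgene, and the other group is an RNA pool of 6 wild-type mice of the same strain and age. The transgene is driven by ARR2PB, a composite form of the probasin promoter, which directs expression to prostate epithelium under androgen control. Both pools were hybridised together to 2 two-colour Agilent whole mouse genome arrays, with the transgenic pool in Cy3 on array 1 and in Cy5 on array 2. The arrays are technical replicates of the same pools, each genotype has 1 replicate, and no test was possible, so no p-value is given and the SD of the arrays (n = 2) leaves out the spread between mice.

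The acute-phase response is a change in secreted proteins that follows infection or tissue damage. Interleukin-6, interleukin-1 and tumour necrosis factor act through STAT3, C/EBP factors and NF-kB to raise it, most of all in the liver, and epithelia make many of the same proteins locally. Several of them withhold iron or haem from bacteria, while others bind or kill bacteria at the surface of the mucosa. The transgene expresses miR-32, whose mature strand is given here with its seed (bases 2 to 8) in capitals, because this transgene sets the pools apart (RefSeq, GRCm38.p6, chr4:56895272-56895293, minus strand).
mmu-miR-32-5p: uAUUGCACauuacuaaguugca

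Serum amyloid genes lie side by side on mouse chromosome 7, and their upstream sequences are shown to compare them with each other. Likeness of these stretches does not say whether the probes of Saa1 and Saa2 share signal, which was not tested. The 250 bases before the start of each gene are from RefSeq (GRCm38.p6), at chr7:46742981-46743230 on the minus strand for Saa1, chr7:46751583-46751832 on the plus strand for Saa2 and chr7:46715677-46715926 on the minus strand for Saa3. Capitals mark matches to a C/EBP motif, TTNNGNAAT on either strand.
Saa1: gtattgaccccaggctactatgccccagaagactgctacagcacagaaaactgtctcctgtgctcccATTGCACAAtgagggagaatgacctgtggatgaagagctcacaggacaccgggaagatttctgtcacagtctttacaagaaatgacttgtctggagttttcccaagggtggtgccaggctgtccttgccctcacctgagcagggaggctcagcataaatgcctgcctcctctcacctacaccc
Saa2: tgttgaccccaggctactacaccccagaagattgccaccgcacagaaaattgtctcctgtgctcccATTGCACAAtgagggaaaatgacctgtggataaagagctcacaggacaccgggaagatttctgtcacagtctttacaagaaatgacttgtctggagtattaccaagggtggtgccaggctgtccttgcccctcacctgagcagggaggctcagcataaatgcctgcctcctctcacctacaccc
Saa3: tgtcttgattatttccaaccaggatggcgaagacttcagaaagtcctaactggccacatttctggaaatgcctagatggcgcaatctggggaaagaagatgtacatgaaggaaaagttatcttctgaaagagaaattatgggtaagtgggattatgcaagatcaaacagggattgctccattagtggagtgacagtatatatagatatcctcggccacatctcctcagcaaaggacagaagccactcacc
In a global alignment, the stretches of Saa1 and Saa2 were identical at 238 of 251 aligned positions, or 94.8%. Both hold the same C/EBP match, which begins 183 bases before the start in Saa1 and 184 in Saa2. In the gene table each of these names is also listed as a synonym of the other, and here the accession of the probe decides which is meant. The stretch of Saa3 holds no match.

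The upstream stretches of Ltf (chr9:111019042-111019291, plus strand), one of the lowest ratios, and of Defb29 (chr2:152540042-152540291, minus strand), the only member with a higher signal in the transgenic pool, are shown because their ratios lie in opposite directions. Capitals mark the C/EBP motif in both, and in Defb29 also the STAT motif TTCNNNGAA.
Ltf: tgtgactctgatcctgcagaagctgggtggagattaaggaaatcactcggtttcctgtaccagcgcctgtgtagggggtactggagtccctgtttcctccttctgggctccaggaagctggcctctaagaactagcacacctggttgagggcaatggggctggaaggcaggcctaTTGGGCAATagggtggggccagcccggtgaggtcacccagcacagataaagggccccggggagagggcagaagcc
Defb29: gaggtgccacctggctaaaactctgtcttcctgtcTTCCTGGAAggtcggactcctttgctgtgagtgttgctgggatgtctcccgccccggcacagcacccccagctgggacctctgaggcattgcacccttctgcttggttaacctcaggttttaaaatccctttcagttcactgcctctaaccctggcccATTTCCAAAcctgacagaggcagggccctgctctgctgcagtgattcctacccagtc
The match in Ltf begins 75 bases before the start. In Defb29 the STAT match begins 215 bases and the C/EBP match 57 bases before it, and they do not overlap. Promoter windows of 250 bases before to 50 after the start were in the table for 8 of the 10 genes. Of these 8 genes, 4 held the C/EBP motif (Saa1, Saa2, Ltf and Defb29), 1 held the STAT motif and 0 held the NF-kB motif searched, which is GGGA, any 2 bases and TTCC. Among all 32851 promoter windows, 11.46% held the C/EBP motif, 8.3% the STAT motif and 1.47% the NF-kB motif, on either strand. These are matches of letters, and neither a match nor its absence says whether a factor binds. Genes with a lower and with a higher signal both held the C/EBP letters.

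Of the 10 genes, 7 were lower in the transgenic pool, 1 was higher and 2 were neither. A call needed a mean log2 ratio of transgenic over wild type of 1 or more in size, with both arrays past 1.5-fold on the same side. Over all detected genes the same rule called 3.52% lower and 1.09% higher. Since these ratios were used to choose the members, nothing is read from the counts. For the same reason nothing is read from the median log2 ratio, which was -3.01 over the 10 genes, against 0.01 over all detected genes. For 8 of the 10, every signal of either pool was well above background by Feature Extraction's own call. In the transgenic pool Reg3g passed that call on array 1 alone, and in the wild-type pool Defb29 passed it on array 2 alone, so their ratios rest in part on a signal near background. Both passing signals were in Cy3, the dye with more spots past the call. Of the non-control spots, 29736 on array 1 (Cy3) and 17185 on array 2 (Cy5) passed it in the transgenic pool, against 18606 (Cy5) and 30718 (Cy3) in the wild-type pool. No spot was saturated on either array. In RNA of whole tissue, fewer cells of a type and less RNA per cell cannot be told apart.

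**Figure D1:**
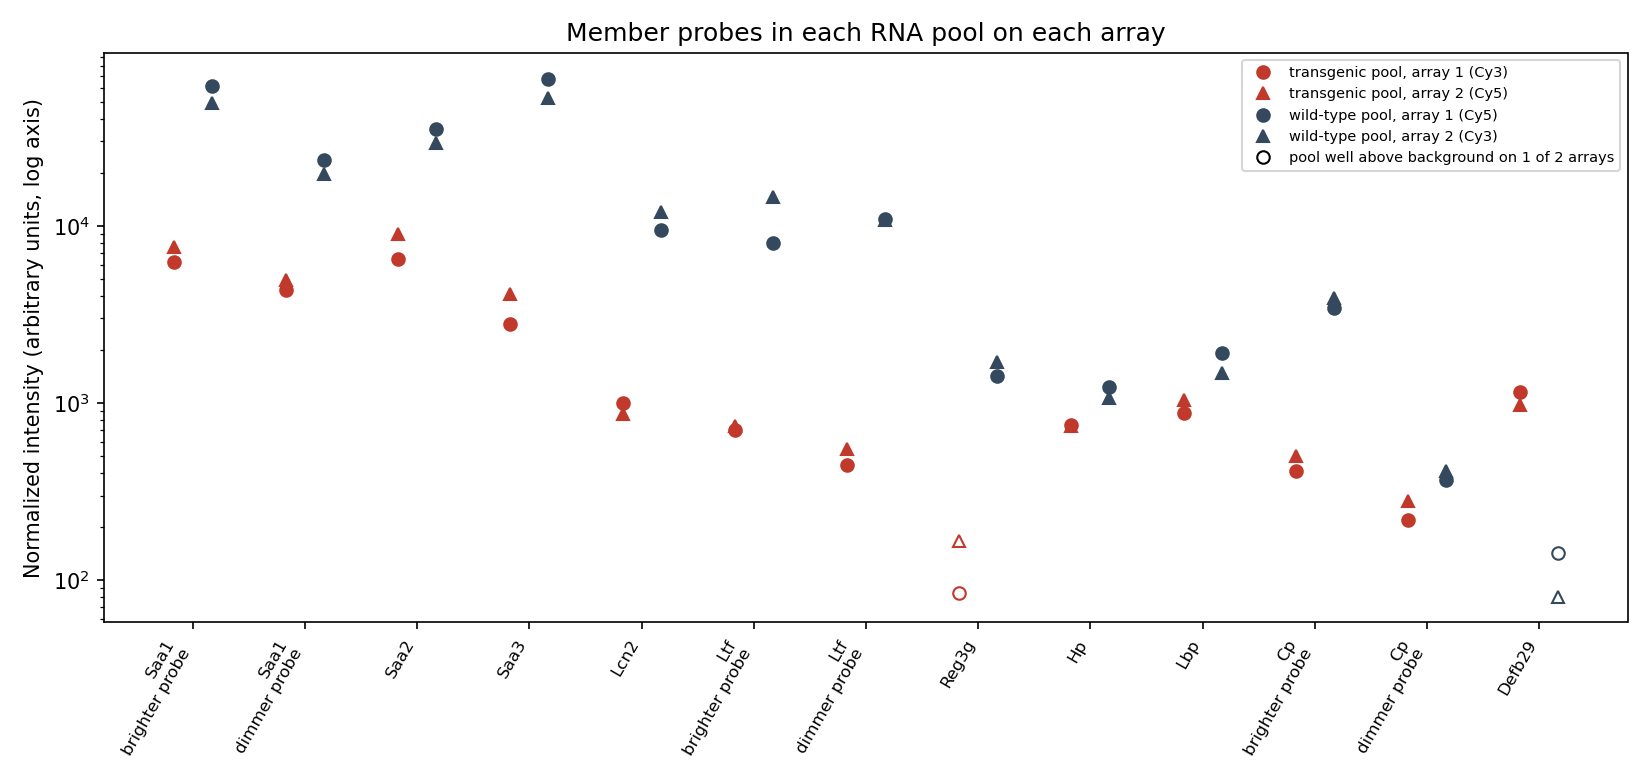
Normalized intensity (arbitrary units, log axis) of the 13 member probes in the transgenic pool (red, left of each pair) and the wild-type pool (dark blue, right), with circles for array 1 and triangles for array 2. At Defb29 alone the transgenic signals lie above the wild-type ones, and the members were chosen by their ratios on these arrays.

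Saa3, a serum amyloid made by epithelia, macrophages and fat as well as liver, was much dimmer in the transgenic pool. Its normalized intensity, on a linear scale after loess and quantile scaling, was 2782 on array 1 and 4122 on array 2 in the transgenic pool, against 67647 and 52650 in the wild-type pool. The pools were far apart on both arrays, and the log2 ratio was -4.60 on array 1 and -3.68 on array 2, a mean of -4.14 ± 0.66 (SD, n = 2), or 17.6-fold lower. With this processing it ranked 11th from the lowest of all 13932 genes, from which nothing is read because members were chosen by these ratios. The order among Saa3, Ltf and Reg3g changed with the processing, and with Feature Extraction's ratios Saa3 stood at -4.16, Ltf at -4.29 and Reg3g at -5.51. The transgenic pool kept a signal well above background on both arrays.

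Saa1, which like Saa2 is carried on high-density lipoprotein in plasma, has 2 probes of the same transcript. By the brighter probe its intensity was 6215 and 7625 in the transgenic pool, against 61431 and 49583 in the wild-type pool. The mean log2 ratio was -3.003 ± 0.427, or 8.02-fold lower. The dimmer probe had 4353 and 4927 in the transgenic pool, against 23644 and 19644 in the wild-type pool, a smaller difference of -2.22 ± 0.32. Saa2 had an intensity of 6463 and 9050 in the transgenic pool, against 35271 and 29490 in the wild-type pool. Its mean log2 ratio was -2.08 ± 0.53, or 4.22-fold lower, and its array values were -2.45 and -1.70. All 3 serum amyloid probes used, and the dimmer probe of Saa1, were lower on array 1 than on array 2. Probe sequences were not used here, and signal shared between Saa1 and Saa2 was not tested.

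None of the other genes nearest the serum amyloid members on chromosome 7 was called lower. Saa4, the serum amyloid that is made constitutively, lies between Saa3 and Saa1 in the annotation's gene order, and its mean log2 ratio was -0.19 ± 0.01. Its intensity was 151.2 and 146.3 in the transgenic pool, with 1 of the 2 arrays past the background call, against 171.4 and 167.4 in the wild-type pool. A wild-type signal this dim leaves little room for a lower ratio to show. With Feature Extraction's ratios Saa4 stood at -0.38, and its other probe gave -0.28. Saal1, beside Saa3, stood at -0.17 ± 0.07, and Hps5, beside Saa2, at 0.01 ± 0.34. Tph1, the next gene after Saal1, was higher at 1.0997 ± 0.2934. Around all 10 members, the 3 nearest protein-coding genes on each side came to 49 different genes that are not members, of which 25 were detected. Their median log2 ratio was -0.08, and 1 was higher (Tph1) and 1 lower, the transglutaminase gene Tgm2 near Lbp, at -1.04 ± 0.22.

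Among the proteins that bind iron, siderophores, copper or haemoglobin, Lcn2 and Ltf had the larger differences. Lcn2, or lipocalin 2, takes up bacterial siderophores and so keeps iron from bacteria. Its intensity was 999.2 and 862.4 in the transgenic pool, against 9530 and 12036 in the wild-type pool. The mean log2 ratio was -3.53 ± 0.39, or 11.5-fold lower, with -3.25 on array 1 and -3.80 on array 2.

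Ltf, or lactoferrin, binds free iron in glandular secretions and in neutrophil granules. By its brighter probe the intensity was 706.5 and 742.5 in the transgenic pool, against 8002 and 14539 in the wild-type pool. The mean log2 ratio was -3.90 ± 0.56, or 14.9-fold lower. The other probe had 447.6 and 546.7 in the transgenic pool, against 10982 and 10742 in the wild-type pool, and gave -4.46 ± 0.23. On both arrays and by both probes the wild-type pool was far brighter.

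Cp, or ceruloplasmin, is a copper-containing ferroxidase that helps iron leave cells. Its brighter probe, of the accession NM_007752, had an intensity of 414.7 and 500.8 in the transgenic pool, against 3459 and 3903 in the wild-type pool. The arrays were close to each other, with log2 ratios of -3.06 and -2.96, a mean of -3.01 ± 0.07 and an 8.06-fold lower signal. The dimmer probe, of the accession NM_001276250, had 217.7 and 278.8 in the transgenic pool, against 366.6 and 412.0 in the wild-type pool. It gave -0.66 ± 0.13, which the rule does not call, so the probes of Cp disagree in size. With the mean of both probes in place of the brighter one, Cp stood at -1.83. Which transcripts each probe meets was not tested.

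Hp, or haptoglobin, binds haemoglobin released from red cells, and it was one of the 2 genes not called. Its intensity was 754.6 and 741.1 in the transgenic pool, against 1226 and 1068 in the wild-type pool. The mean log2 ratio was -0.61 ± 0.12, or 1.53-fold lower.

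Lbp, the lipopolysaccharide-binding protein, hands bacterial endotoxin to Cd14, and it was the other gene not called. Its intensity was 874.2 and 1036 in the transgenic pool, against 1924 and 1472 in the wild-type pool. The log2 ratio was -1.14 on array 1 and -0.51 on array 2, with a mean of -0.82 ± 0.45, or 1.77-fold lower. On array 1 alone it would pass a 2-fold rule. Under a rule of a 1.5-fold mean in the same direction on both arrays, 9 of the 10 genes were lower, Hp and Lbp included, and that rule called 7.72% of all genes lower and 3.41% higher.

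Reg3g, a lectin that kills Gram-positive bacteria at the intestinal surface, was near background in the transgenic pool and clearly above it in the wild-type pool. Its intensity was 84.9 and 165.6 in the transgenic pool, against 1426 and 1697 in the wild-type pool. The mean log2 ratio was -3.71 ± 0.50, or 13.1-fold lower. With the smaller normexp offset of 16 the mean was -4.23, and with the ratios of Feature Extraction, Agilent's image analysis software, it was -5.51 ± 0.27, or 45.4-fold lower. The size of the difference varied with the processing, and its direction was the same on both arrays.

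Defb29, a beta-defensin, is the only one of the 10 genes that was higher. Its intensity was 1146 and 973.0 in the transgenic pool, against 142.1 and 80.6 in the wild-type pool. The log2 ratio was 3.01 on array 1 and 3.59 on array 2, with a mean of 3.30 ± 0.41, or 9.86-fold higher. Defb29 ranked 7th from the highest of all genes, with a wild-type signal past the background call on array 2 alone. Nothing is read from this rank, because members were chosen by these ratios. With Feature Extraction's ratios Defb29 stood at 4.82 ± 0.33, or 28.3-fold higher, and with an offset of 16 at 3.82. Processed signals were 2175 and 2085 in the transgenic pool, against 90.06 and 62.75 in the wild-type pool.

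**Figure D2:**
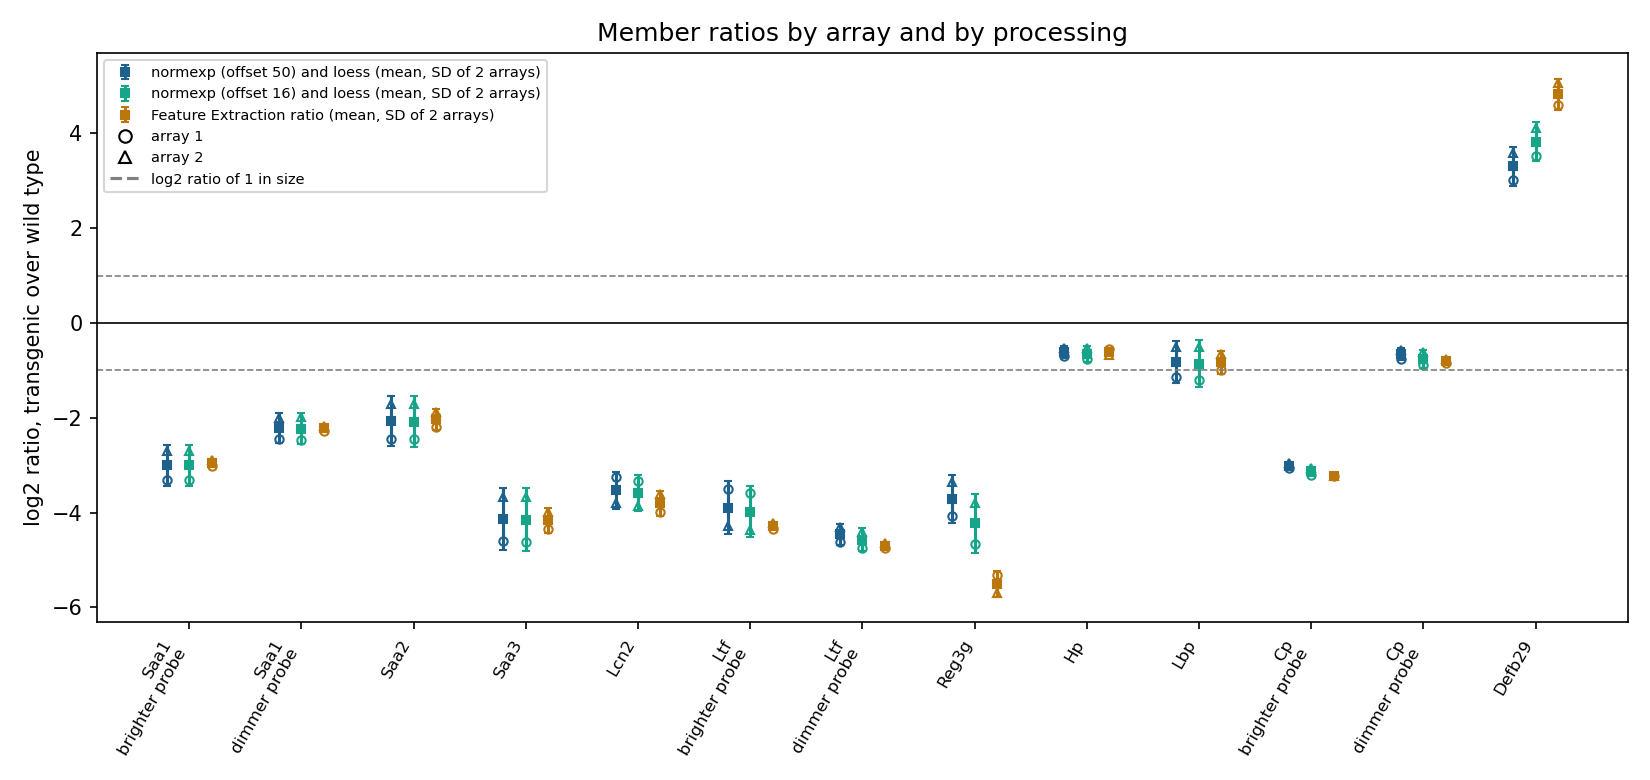
Log2 ratio of transgenic over wild type for the 13 member probes under 3 ways of processing, with squares and bars for the mean and SD of the 2 arrays, open circles for array 1 and open triangles for array 2; dashed lines mark a log2 ratio of 1 in size. The settings give nearly the same mean for the serum amyloids, while the means of Reg3g and Defb29 move to -5.51 and 4.82 with Feature Extraction's ratios.

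Other acute-phase genes were mostly not detected in the gland, where 13932 of all 31993 genes on the array were detected. Of 25 acute-phase genes on the array other than the members, 9 were detected, 5 were lower and 0 were higher. Their median was -1.20. The lower genes were the complement components C3 (-3.06 ± 0.17), C4b (-1.26 ± 0.12) and Cfb (-1.82 ± 0.61), the serine protease inhibitor Serpina3n (-1.31 ± 0.001) and the leucine-rich glycoprotein Lrg1 (-1.20 ± 0.71). The other probe of C3 gave -0.55. The fibrinogen genes Fga, Fgb and Fgg, the pentraxins Crp and Apcs and the haem-binding Hpx, all liver products, were not detected. With median centring in place of loess, 3 of the 9 were lower, and with no filter on dim probes the median was -0.05.

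Genes of other mucosal antimicrobial proteins went in both directions. Of 14 detected among 28 on the array, 7 were lower and 1 was higher, with a median of -1.55. Feature Extraction's ratios put it at -2.60, while keeping every dim probe of the list put it at -0.09. The protease inhibitor Slpi, which is also bactericidal, was at -3.90 ± 0.35, the peptidoglycan-binding Pglyrp1 at -2.86 ± 0.58, the lysozymes Lyz1 and Lyz2 at -2.76 ± 0.57 and -2.17 ± 0.05, the scavenger receptor-like Dmbt1 at -2.65 ± 0.38 and the calgranulin S100a9 at -2.40 ± 0.14. Reg3b, a lectin related to Reg3g, was at least 4.16-fold lower. This is a bound because its transgenic signal passed the background call on no array, and it compares the wild-type mean with the transgenic signal itself, or with the faintest signal that passed if that is brighter. For Reg3b it equals the measured ratio. Ang4, an antimicrobial ribonuclease of the gut, was higher at 3.59 ± 0.32. Pigr, which carries immunoglobulin A across epithelium, stood at 0.49 ± 0.34, and S100a8 at -1.05 ± 0.73, which the rule did not call because array 1 gave -0.53. Reg1, Reg2, Reg3a and Reg3d were not detected.

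The other beta-defensins mostly had small ratios. Of 28 other beta-defensin genes on the array, 9 were detected, 1 was lower and 0 were higher, with a median of 0.05. In the deposited series table, which lists 7 of the 9, the median was 0.66. Defb6 was at least 2.74-fold lower, a bound that equals the measured mean ratio. Defb1, the constitutive beta-defensin of epithelia, stood at -0.56 ± 0.11 by its brighter probe and 0.03 by the other. Defb50 stood at -0.27 ± 1.01, with -0.98 on array 1 and 0.45 on array 2, and Defb10 at 0.78 ± 0.73. Of the neighbours of Defb29 on chromosome 2, Defb19 was detected at -0.15 ± 0.25 and Defb22 was not detected. Beta-defensins are close paralogs, and signal shared between them was not tested. None of the 7 epididymis markers on the array was detected (0 of 7), among them Lcn5, Lcn8 and Crisp1.

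**Figure D3:**
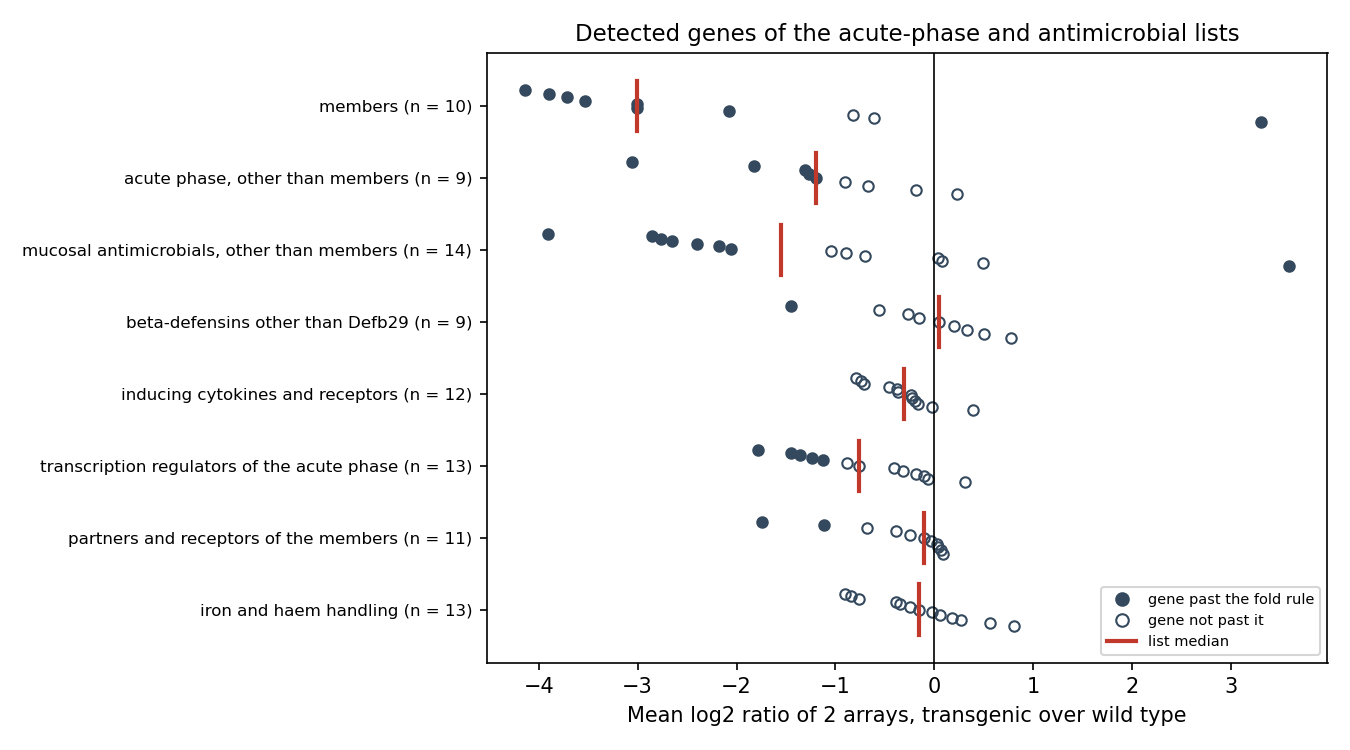
Mean log2 ratio of transgenic over wild type for each detected gene of the 10 members and 7 lists, with filled points for genes past the fold rule, open points for the others and a red line at each list's median. Called genes lie on the lower side in most lists, with Defb29 and Ang4 as the points above 3.

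Genes for the cytokines that raise these proteins were near background or not detected. Of 20 cytokine and receptor genes on the array, 12 were detected, and 0 were lower and 0 higher, with a median of -0.30. Il6, Il1a, Il22, Il17a, Il17c, Il17f and Osm were not detected. Il1b stood at -0.74 ± 0.02 with a transgenic signal that passed the background call on no array, and Tnf at -0.79 ± 0.01 with that pool above it on 1 array. With Feature Extraction's ratios 4 of the 12 were lower, Il1b (-3.24) and Tnf (-2.29) among them.

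Transcriptional regulators of the response were lower in part. Of 15 on the array 13 were detected, 5 were lower and 0 were higher, with a median of -0.77. Among them were Cebpd (-1.78 ± 0.12), a C/EBP factor of the acute phase, and Bcl3 (-1.45 ± 0.07), a nuclear partner of NF-kB. The NF-kB inhibitor Tnfaip3 (-1.36 ± 0.18) and the NF-kB subunit Relb (-1.24 ± 0.43) were also lower. Socs3, the feedback inhibitor induced by STAT3, stood at -0.89 ± 0.14, and Nfkbiz, which NF-kB needs for Lcn2 in many cells, at -0.77 ± 0.23. Stat3 stood at -0.06 ± 0.66, with 0.40 on array 1 and -0.53 on array 2, and Rela at -0.10 ± 0.05. Cebpa stood at -0.41 ± 0.08, and Cebpb was not detected.

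Partners and receptors of the 10 proteins showed 2 lower genes and 0 higher among 11 detected of 14, with a median of -0.11. Cd14, to which Lbp passes endotoxin, was at -1.11 ± 0.51, while the rest of that receptor, Tlr4 and Ly96, stood at 0.09 ± 0.22 and 0.03 ± 1.39. Ly96 gave 1.01 on array 1 and -0.95 on array 2, so its mean hides arrays of opposite sign. Ccr6, a chemokine receptor of lymphocytes and dendritic cells that beta-defensins can bind, was at -1.74 ± 0.28. The serum amyloid receptor gene Fpr2 was not detected, and Slc22a17, a receptor described for lipocalin 2, stood at -0.11 ± 0.48.

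Genes of iron and haem handling differed by less than Lcn2, Ltf and the brighter probe of Cp. The dimmer probe of Cp, at -0.66, differed by less than Steap4 (-0.91 ± 0.35), Hmox1 and Slc40a1. Of 13 detected among 18 on the array, 0 were lower and 0 higher, with a median of -0.15. Haem oxygenase (Hmox1) stood at -0.84 ± 0.21, the iron exporter Slc40a1, which works with ceruloplasmin, at 0.81 ± 0.36, transferrin (Trf) at -0.25 ± 0.03 and its receptor Tfrc at -0.15 ± 0.05. The ferritin genes Fth1 and Ftl1 stood at -0.34 ± 1.33 and 0.05 ± 0.98, with arrays of opposite sign for both. With Feature Extraction's ratios 3 were lower and 1 was higher.

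Several of these proteins are made by more than 1 cell type, so markers of other cells are given beside them. Of 14 neutrophil genes on the array 3 were detected. S100a9, which other myeloid cells also make, was lower. The granule genes Mpo, Elane, Prtn3, Ctsg, Camp, Ngp and Mmp8 were not detected, and neither were Csf3r, Cxcr2, Retnlg and Itgam. With Feature Extraction's ratios all 3 detected genes were lower, with a median of -3.17 against -1.05 with the processing used here, and with no filter on dim probes the median over 14 genes was -0.13. Summed over the 3 detected genes, the intensity was 242 and 318 in the transgenic pool, against 691 and 1037 in the wild-type pool. All 11 macrophage genes on the array were detected, 7 were lower and 0 higher, with a median of -1.38 and a summed intensity of 4082 and 4437 in the transgenic pool, against 12990 and 15097 in the wild-type pool. Of 12 lymphocyte and antigen presentation genes 9 were lower, with a median of -2.04 and a summed intensity of 4728 and 5032 in the transgenic pool, against 32360 and 33973 in the wild-type pool. With a 2-fold difference asked of each array, 4 macrophage genes were lower, and with detection in both pools 4 of the 5 lymphocyte genes left were lower. The pan-leukocyte gene Ptprc was at -2.57 ± 0.03 by its brightest probe, and less far down by its others. The part of leukocytes in the differences of the members was not tested.

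Markers of liver, fat and blood did not move with the members by the rule. Of 11 hepatocyte genes 3 were detected, and albumin (Alb), Apoa1, Ttr and Ahsg were not detected. The 3 detected genes had a median of -0.12, which was 0.21 with Feature Extraction's ratios. Adipocyte genes had a median of 0.0988 over 7 detected, with Adipoq at 0.10 ± 0.03, and erythrocyte genes a median of -0.23 over 3, with 0 called in both. Goblet and mucous cell genes had 3 of 5 detected members higher (Tff3, Clca1 and Fcgbp) and a median of 1.77, which was 0.57 over 7 genes with no filter on dim probes. Muc2 was not detected.

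The tissue label was checked against 11 genes of ventral prostate epithelium, and all 11 were detected. The list median was 0.02, and 2 of the genes were lower, Spink1 (-5.88 ± 0.21) and Sbp (-1.35 ± 0.55). Krt18 stood at -0.004 ± 0.433, Hoxb13 at 0.12 ± 0.13 and Epcam at 0.90 ± 0.11. Summed over the list the intensity was 284773 and 400994 in the transgenic pool, against 1011084 and 814267 in the wild-type pool, where Spink1 alone gave 468858 and 423630.

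**Figure D4:**
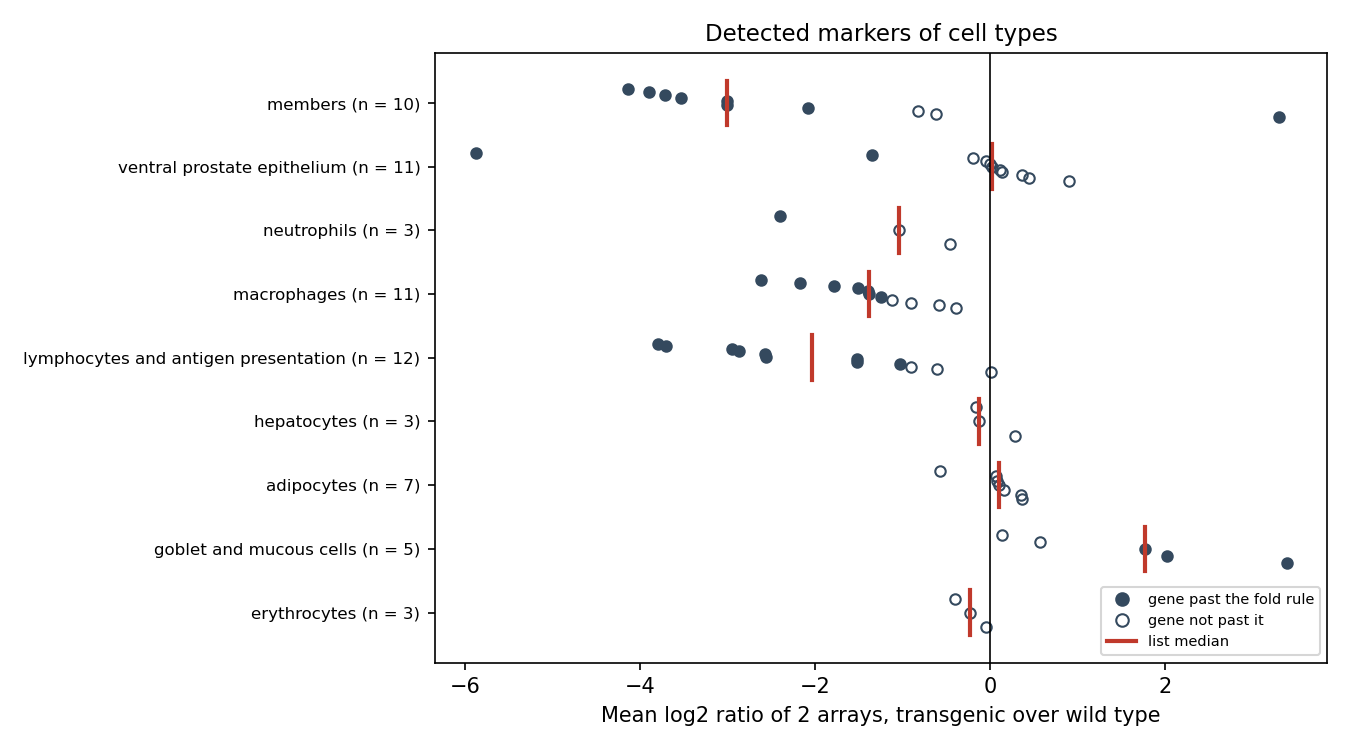
Mean log2 ratio of transgenic over wild type for each detected marker of 8 cell types below the 10 members, with filled points for genes past the fold rule, open points for the others and a red line at each list's median. Macrophage and lymphocyte markers lie mostly below 0, adipocyte markers near 0 and goblet cell markers above it.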

How the data were processed

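Per the labels, the 2 arrays carry the same pair of RNA pools, each of 6 mice, labelled from 100 ng of total RNA with dyes swapped. Per the file headers, Feature Extraction 11.0.1.1 (Agilent) made the values, with probe annotation on mm9. The deposited scanner files hold the intensity of each spot and its local background as medians per dye, processed intensities, from which the software took off background and evened out the dyes, and the log10 of red over green. The deposited table of the series holds log2 values whose columns correlated at 1.0 with that ratio turned to transgenic over wild type. Its medians of 0 show centring, and no source used here says how its probes were selected. It lists 15474 non-control probes, close to the 15486 that were well above background on both arrays in both pools. The alternatives that use this table and detection in both pools may therefore not be separate checks.

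Median signals were used because the files carry no mean signals. Spot signals went through normexp (offset 50) and then loess within each array (limma 3.58.1, R 4.3.3), with weight 0 for control and outlier spots. Spots of a probe were averaged, ratios were turned to transgenic over wild type and the 2 arrays averaged. Levels are intensities after further quantile scaling between arrays. A probe was detected where well above background on both arrays in at least 1 pool, and each gene took its brightest detected probe. Array precision is limited by their number. Names came from RefSeq (GRCm38.p6) by accession, for 27816 of 41174 probes, and no coordinates were joined to the array. The procedure was tested on simulated data. Known ratios were placed only in probes brighter than those of Reg3g and Defb29, so ratios of probes as dim as these were not covered.

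The members and lists were chosen with earlier results of these data known. Named genes are all members, the called genes of each list, and genes that define a cell type or pair with a member. One called gene of a list is not reported here. The planned protein comparison was not made; protein sequences were not used here. The alternatives were 12 settings of normalization, background, ratio source, filter, probe choice, arrays and call rule.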

Additional observations from a re-analysis of the deposited data

How the results depend on the processing

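The 7 lower genes and Defb29 were called under each of the alternatives that measured them, with Reg3g and Defb29 not measured in the deposited series table or where detection was asked of both pools. There, 6 members were lower and 0 higher of 8 measured. On 1 array alone the lower members numbered 7 to 8, with Lbp as the gene added on array 1, and the higher members stayed at 1. A rule of a 1.5-fold mean gave 9 lower. Over the alternatives the log2 ratio ranged from -5.51 to -3.36 for Reg3g, from 3.01 to 4.82 for Defb29, from -3.30 to -1.83 for Cp, from -4.60 to -3.68 for Saa3 and from -1.14 to -0.51 for Lbp, and no member changed sign, although with median centring Hp was at 0.36 on array 1 and -1.45 on array 2. Over all genes, 490 were lower and 152 higher. These counts were 99 higher with median centring, 937 lower and 312 higher with Feature Extraction's ratios, 266 lower with detection in both pools, and 1076 lower and 475 higher with the 1.5-fold rule. On 1 array alone the higher genes numbered 272 to 451 and the lower genes 588 to 598. Higher genes were 43.0% of the calls on array 1 alone. The cause of these shifts was not tested. No paired analysis was possible because each genotype is 1 pool, measured on the same 2 arrays. Signals near background limit the sizes given for Reg3g and Defb29.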
